A study of Mus musculus with 32 samples.

Results

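Fibroblasts in which ATP-citrate lyase (ACLY) carried added nuclear import sequences (ACLY-Nuc) were compared with fibroblasts in which it carried no added localization sequence (ACLY WT), both after 24 h in medium with 1 mM glucose. The comparison takes 8 of the 32 libraries of the series, 4 per group, and covers all 12053 genes that have a symbol in the table for this medium. Both groups derive from a mouse embryonic fibroblast line that lacks its own Acly gene, and in both the ACLY supplied is human and tagged with the red fluorescent protein mCherry. The labels give DMEM with 10% CS, penicillin and streptomycin as the culture medium, and batch 1 for every library in 1 mM glucose. The other lines in this medium, Acly KO with mCherry alone and ACLY-Cyto with a nuclear export sequence, have 4 libraries each and are given as reference levels. The question is which transcripts differ when the enzyme is directed to the nucleus while glucose is scarce. Nothing in the labels tells if the libraries of a group came from different cultures, or if a construct was put into cells more than once, so the p-values measure the spread among these libraries, and construct and cell line cannot be told apart. The position of ACLY in the cells was not analysed here.

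ACLY splits citrate that has left the mitochondria into oxaloacetate and acetyl-CoA. In the cytosol acetyl-CoA is the carbon source for fatty acids and for the mevalonate pathway to cholesterol, and in the nucleus it is the substrate of the enzymes that acetylate histones. Acetyl-CoA can also be made from acetate by the synthetase ACSS2. Glucose is a main source of the citrate that ACLY uses, and it also feeds the hexosamine pathway that makes the sugars added to proteins in the endoplasmic reticulum (ER).

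The label of each group was checked with Acly. All values below are the deposited log2 levels unless a difference is named, and a difference is always ACLY-Nuc minus ACLY WT with limma's standard error. Acly stood at 9.05, 9.00, 8.96 and 8.87 in the ACLY-Nuc libraries and at 10.68, 10.43, 10.59 and 10.56 in the ACLY WT libraries. Every ACLY-Nuc library was thus below every ACLY WT library, by 3.03-fold on average (difference -1.60 ± 0.07, limma adjusted p = 1.13e-11). The 2 groups therefore differ in the measured level of Acly as well as in the localization sequence, and their effects cannot be told apart. The sources used here do not say how reads of the human transgene were assigned to the mouse gene.

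Of 14 fibroblast markers 13 had values, 4 of them called higher and 5 lower. Among them, Col1a1 stood at 13.92 to 14.19 in ACLY-Nuc and 14.34 to 14.44 in ACLY WT. Markers of other cell types were mostly not among the measured genes: 2 of 12 epithelial, 3 of 10 endothelial, 4 of 13 neural, 3 of 12 skeletal muscle, 4 of 9 adipocyte, 3 of 9 chondrocyte and bone, and 4 of 12 macrophage markers had values. On the linear scale the summed levels of the adipocyte markers were 491 to 541 in ACLY-Nuc and 380 to 418 in ACLY WT (2 called higher, 1 lower), against 34200 to 39300 and 42400 to 45900 for the fibroblast markers. Those of the macrophage markers were 21.2 to 26.7 and 9.82 to 15.8 (2 called higher, 2 lower), and those of the neural markers 37.3 to 42.5 and 22.3 to 34.0 (1 higher, 0 lower). The sums of the other 4 types overlapped between the groups. The part of these markers in the differences below was not tested. Of the 12 macrophage and blood cell markers, Ptprc, Adgre1 and Spi1 were among those without values. With 4 of 12 measured, the presence or absence of such cells was not settled. In bulk RNA, fewer cells of a type and less RNA per cell cannot be told apart. One library stood apart: ACLY WT replicate 2 had a median absolute deviation of 0.316 from its replicates, against 0.129 to 0.154 for the other ACLY WT and 0.073 to 0.113 for the ACLY-Nuc libraries. Where leaving it out changed a call or moved a called value or a count by over 1.5 times, the value without it is given beside the result. The share of mitochondrially encoded genes in the summed linear values was 1.49% ± 0.158 (SD, n = 4) in ACLY-Nuc and 1.18% ± 0.0605 in ACLY WT (exact two-sided permutation p = 0.0286, the smallest that 4 against 4 allows), and their part in the differences below was not tested.

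limma called 4718 genes at an adjusted p under 0.05, 39.1% of those tested, with 2375 higher (19.7%) and 2343 lower (19.4%) in ACLY-Nuc. A difference of at least 2-fold was held by 404 of the higher genes (3.35% of all tested) and 222 of the lower (1.84%), 5.19% together. For 4292 genes (35.6%) the 4 values of one group lay entirely above those of the other. Without ACLY WT replicate 2 the calls numbered 5138 (42.6%, with 21.3% in each direction). The p-values and standard errors of limma rest on 1 spread per gene shared by all 16 libraries in this medium. The median SD within a group was 0.205 in ACLY WT, 0.105 in ACLY-Nuc, 0.113 in Acly KO and 0.117 in ACLY-Cyto. The shared spread is thus smaller than that of ACLY WT for a typical gene, and the compared groups alone gave 3606 calls. The median difference over all genes was 0.004. The deposited values were already normalized, so this cannot tell if transcript levels as a whole differed. Each gene list below has to be read against these shares, shown as dashed lines in the plot of members called per list.

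**Figure D1:**
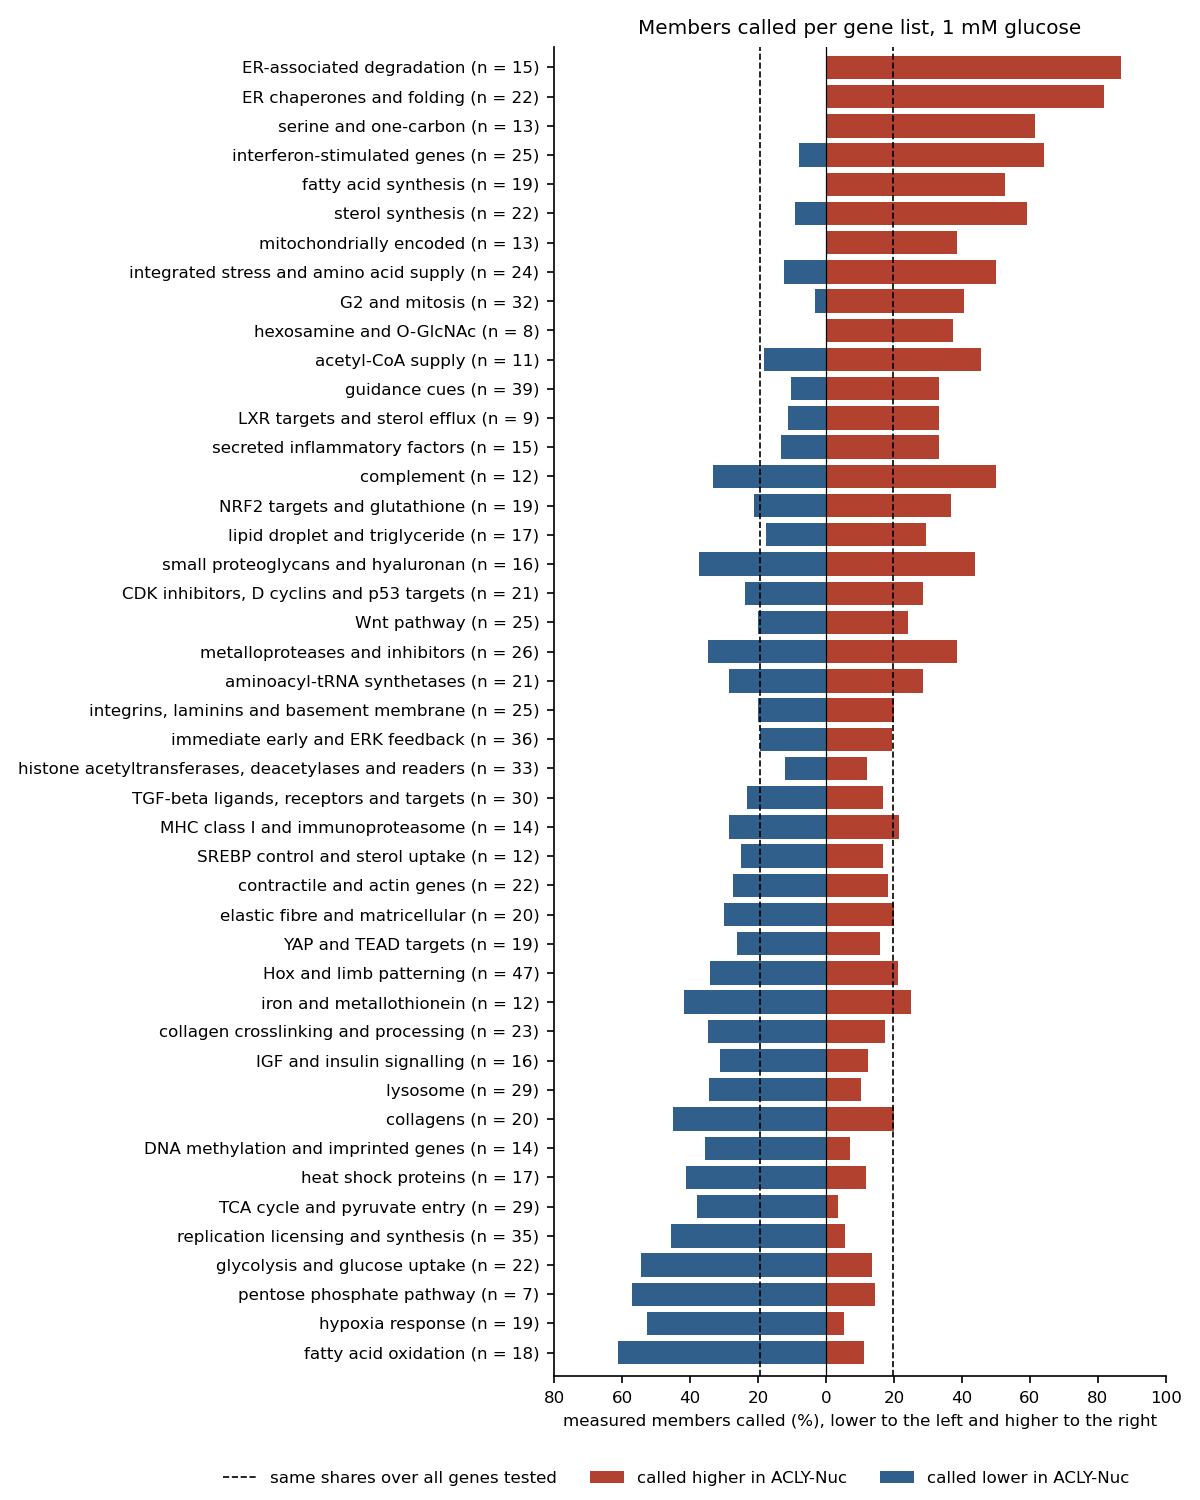
Share of the measured members of each gene list that limma called higher (right, red) or lower (left, blue) in ACLY-Nuc than in ACLY WT in 1 mM glucose, in percent, with the number measured in brackets. The dashed lines mark 19.7% higher and 19.4% lower over all genes tested; ER degradation and ER folding genes lie farthest to the right, and fatty acid oxidation, pentose phosphate and glycolysis genes farthest to the left.

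Among called genes at or above the median level whose groups did not overlap, the largest rise belonged to Gpr141, an orphan G protein-coupled receptor. It stood at 6.82, 6.67, 6.61 and 6.67 in ACLY-Nuc and at 2.55, 2.02, 2.34 and 2.69 in ACLY WT. ACLY WT was the exception, since Acly KO and ACLY-Cyto had means of 5.89 and 6.38, and the difference of 4.29 ± 0.12 corresponds to 19.6-fold. Slc7a11, which imports cystine for glutathione synthesis, stood at 7.32, 6.93, 7.13 and 7.04 against 4.11, 3.60, 4.37 and 4.06, an 8.41-fold rise. The nearest libraries of the 2 groups stood at 6.93 and 4.37, though separate groups were a condition for the genes of this paragraph. Atp2a3, a calcium pump of the ER, rose by 2.06 ± 0.08 and Ctsk, a protease that cuts collagen, by 1.93 ± 0.07. The secreted protein Fibin rose by 1.88 ± 0.06, the nicotinamide methyltransferase Nnmt by 1.86 ± 0.12 and the zinc importer Slc39a10 by 1.86 ± 0.16. Svep1, an adhesion protein of the matrix, Stard5, a lipid transfer protein, and the kinase Pak3 rose by 1.74 ± 0.18, 1.72 ± 0.08 and 1.55 ± 0.20. ACLY WT had the lowest mean of the 4 lines for 8 of these 10 genes. Choosing genes that are low in ACLY WT favours such a count, and the share over all genes was not taken.

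By the same choice of genes, the largest falls began with C3, the central component of complement. It stood at 3.16, 3.44, 3.59 and 3.07 in ACLY-Nuc and 5.87, 5.65, 5.98 and 5.99 in ACLY WT. ACLY-Nuc was below every other line, as Acly KO and ACLY-Cyto had means of 7.33 and 8.82, and the difference to ACLY WT was -2.56 ± 0.11. The carboxylesterase Ces2g, a member of a family with close copies, fell by 2.19 ± 0.09. Clu, an extracellular chaperone, fell by 2.15 ± 0.09. Ezr, which links actin to the membrane, fell by 1.71 ± 0.10 and the guidance cue Sema3f by 1.43 ± 0.10. Rab3il1, an activator of Rab GTPases, and the small proteoglycan Aspn fell by 1.30 ± 0.11 and 1.28 ± 0.08. Rpl34-ps1 and Mtrnr2l7, at -1.99 ± 0.12 and -1.63 ± 0.12, are near copies of a ribosomal protein gene and of a mitochondrial ribosomal RNA, so how their reads were divided is uncertain. Acly itself completes the 10. ACLY-Nuc had the lowest mean of the 4 lines for 7 of them, a count that choosing genes low in ACLY-Nuc favours in the same way.

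**Figure D2:**
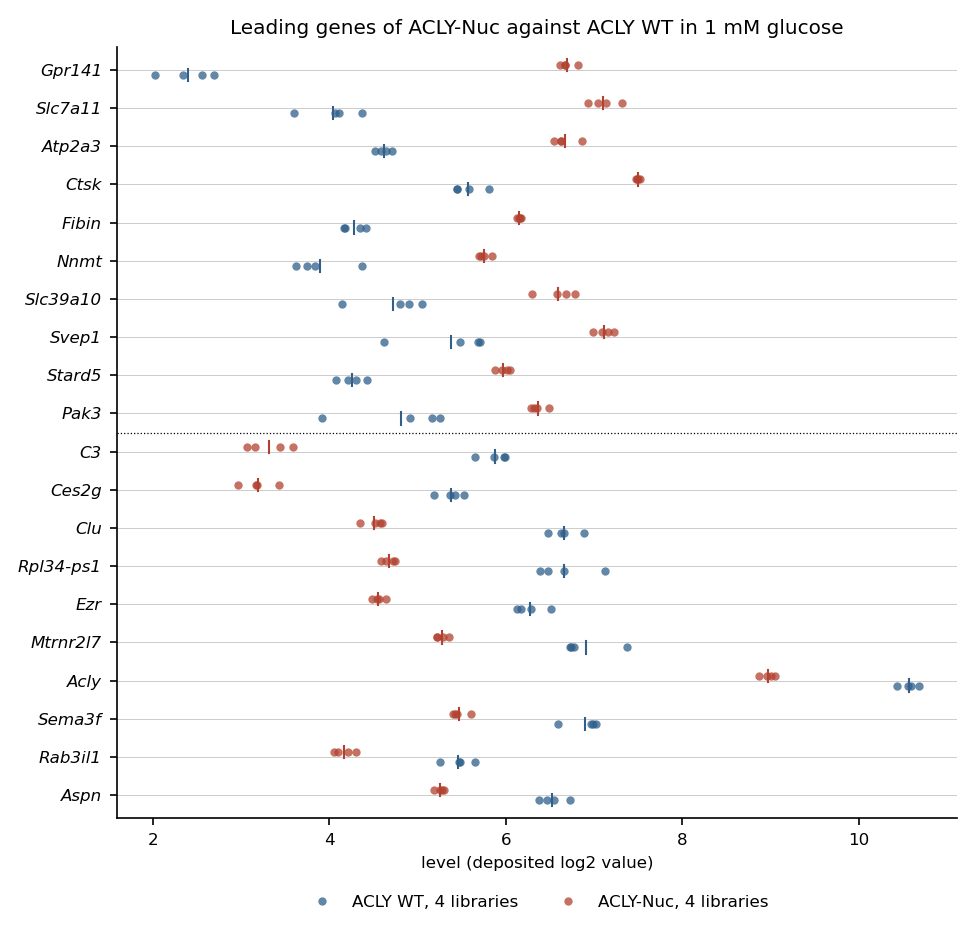
Deposited log2 level (horizontal axis) of the 10 genes with the largest rise (above the dotted line) and the 10 with the largest fall among well expressed genes, with 1 point per library, ACLY-Nuc in red, ACLY WT in blue, and a tick at each group's mean. Only genes whose groups did not overlap were taken, so the lack of overlap was set by the choice. The ACLY WT points spread more than the ACLY-Nuc points for Svep1, Pak3 and Slc39a10, where ACLY WT replicate 2 is the lowest point.

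ER chaperones and the enzymes that help proteins fold stood higher in ACLY-Nuc. The ER folds secreted and membrane proteins with chaperones and disulfide isomerases, and when unfolded proteins build up, the sensors IRE1, PERK and ATF6 raise these genes and those that pass misfolded proteins to the proteasome. ATF6 and XBP1 act through the ER stress response element, CCAAT and CCACG with 9 free bases between them, which was searched on both strands in RefSeq promoters (250 bases before to 50 after the start, build GRCm38.p6). Among degradation genes with a promoter sequence it was found in 1 of 11 (9.09%, Syvn1), and in 16 of 9279 genes overall (0.172%). Of the folding genes 8 of 17 held it (47.1%). The stretches below are shown because these are the genes described next, with the motif and its reverse complement in capitals and 15 bases on each side, each written 5′ to 3′ along the gene's own strand.
Hspa5, chr2:34772010-34772058, plus strand, 32 to 80 bases before the start: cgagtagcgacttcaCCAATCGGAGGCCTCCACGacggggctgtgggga
Dnajc3, chr14:118937812-118937860, plus strand, 72 to 120 bases before the start: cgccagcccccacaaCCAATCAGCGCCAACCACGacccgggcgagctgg
Creld2, chr15:88819505-88819553, plus strand, motif reversed, 93 to 141 bases before the start: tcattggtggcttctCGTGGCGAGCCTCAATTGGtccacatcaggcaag
Pdia6, chr12:17266476-17266524, plus strand, 65 to 113 bases before the start: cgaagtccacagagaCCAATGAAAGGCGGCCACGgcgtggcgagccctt
Calr, chr8:84847060-84847108, minus strand, motif reversed, 129 to 177 bases before the start: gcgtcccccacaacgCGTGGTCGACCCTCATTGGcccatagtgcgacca
Canx, chr11:50325785-50325833, minus strand, 112 to 160 bases before the start: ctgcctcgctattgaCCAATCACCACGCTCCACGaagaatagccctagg
A match of letters is a description of the promoter and not of binding. In these stretches it overlaps no match of the other motifs searched.

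Hyou1, a chaperone that exchanges the nucleotide of BiP, led the folding genes, at 10.48, 10.14, 10.19 and 10.14 in ACLY-Nuc and 9.03, 9.02, 8.98 and 8.67 in ACLY WT. The groups were more than 1 log2 unit apart at their nearest values, and the difference was 1.31 ± 0.09 (limma adjusted p = 1.3e-08). Creld2, an ER stress-induced disulfide isomerase, stood at 9.44, 9.12, 9.16 and 9.16 against 7.82, 8.72, 7.75 and 7.50. ACLY WT replicate 2 was the library nearest to ACLY-Nuc, and the difference of 1.28 ± 0.18 became 1.53 without it. Hspa5, which encodes BiP, the most abundant ER chaperone, stood at 12.98, 12.63, 12.78 and 12.84 against 11.98, 12.51, 12.02 and 11.75. Here too ACLY WT replicate 2 was highest of its group, and the difference was 0.74 ± 0.13, or 0.89 without it. The disulfide isomerases Pdia4 and Pdia6 rose by 1.12 ± 0.10 and 0.65 ± 0.12, and the co-chaperones of BiP Dnajb9, Sdf2l1 and Dnajc3 by 1.08 ± 0.10, 1.07 ± 0.18 and 0.91 ± 0.09. Hsp90b1, the ER member of the HSP90 family, rose by 0.96 ± 0.13. The lectin chaperones of glycoproteins, Calr and Canx, rose by 0.55 ± 0.10 and 0.37 ± 0.09. In all, 18 of 22 measured folding genes were called higher and 0 lower, with a median difference of 0.58, and 22 of 22 were called higher without ACLY WT replicate 2, with a median of 0.69.

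ER-associated degradation went the same way, with 13 of 15 measured genes higher, 0 lower (1 without ACLY WT replicate 3) and a median of 0.41. Sel1l and Syvn1, the adaptor and the ubiquitin ligase of the main export complex, rose by 0.99 ± 0.12 and 0.74 ± 0.06. Edem1, which picks out misfolded glycoproteins, rose by 0.92 ± 0.07, and Herpud1, a scaffold of the complex, by 0.85 ± 0.09. Of the signalling genes, the transcription factor Xbp1 rose by 0.53 ± 0.09. Ddit3, which encodes the stress factor CHOP, stood at 9.65, 9.56, 9.55 and 9.51 in ACLY-Nuc and at 8.68, 9.70, 8.67 and 8.65 in ACLY WT. ACLY WT replicate 2 lay among or above the ACLY-Nuc libraries and the other ACLY WT libraries lay below all of them, and the difference was 0.64 ± 0.18 with it and 0.90 without. The level in Acly KO was below that of ACLY WT for all of these, with means of 9.76 for Hspa5, 7.07 for Hyou1 and 6.84 for Ddit3, and ACLY-Cyto was near ACLY-Nuc for these 3, with means of 13.10, 10.35 and 9.46. For Edem1 and Syvn1 the ACLY-Cyto means, 8.07 and 7.38, were nearer to those of ACLY WT, 8.04 and 7.11, than to those of ACLY-Nuc, 8.97 and 7.85.

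In 10 mM glucose the ER difference between the same constructs was not seen in this form. There, 5 of 22 folding genes were higher and 5 lower (median -0.09), against 15% higher and 13.8% lower over 12791 genes, and 1 of 15 degradation genes was higher and 2 lower (median 0.04). Each medium has its own batch and table, so only the change of the difference, 1 mM minus 10 mM, was tested, on the 11931 genes in both. It was called for 1225 genes (10.3%), 555 of them upward (4.65%) and 670 downward (5.62%). Of the folding genes 13 of 22 changed upward and 0 downward, and of the degradation genes 7 of 15 and 0. Creld2 changed by 1.40 ± 0.22 (limma adjusted p = 8.13e-05), Hyou1 by 1.15 ± 0.11 (4.3e-08), Syvn1 by 1.02 ± 0.10 (4.3e-08) and Hspa5 by 0.94 ± 0.16 (0.000177). The difference for Hspa5 in 10 mM glucose was -0.20. For Canx and Xbp1 the change, 0.22 ± 0.10 and 0.26 ± 0.11, was not called. Batch and glucose cannot be told apart in this contrast. The difference in Acly itself also changed between media, by -0.50 (limma adjusted p = 0.00407), and its part in these changes was not tested.

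**Figure D3:**
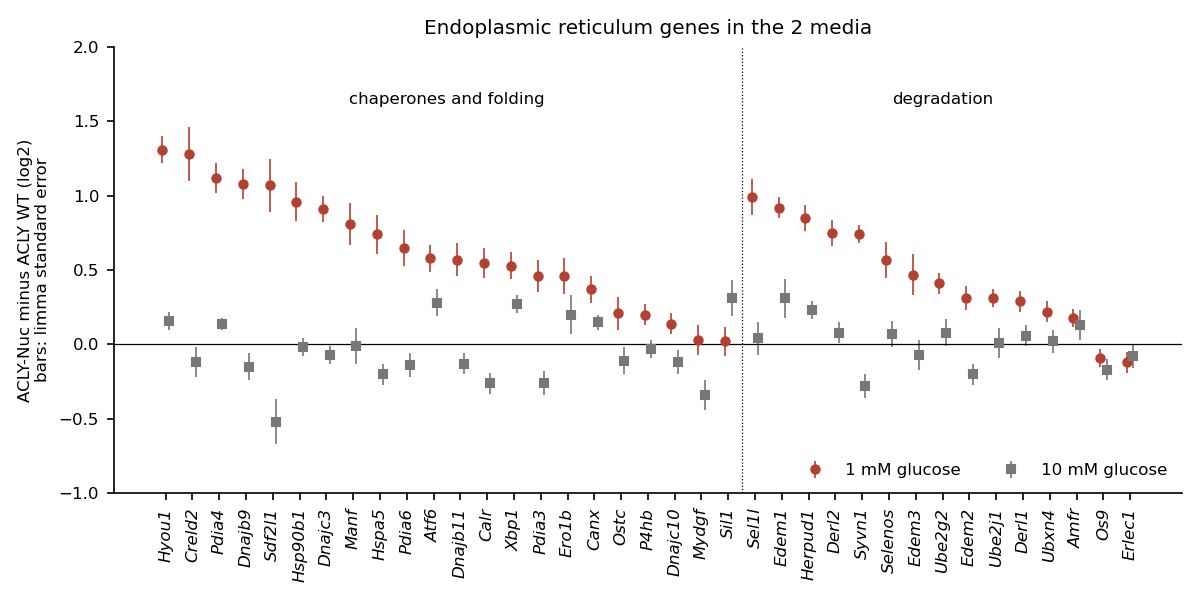
Difference between ACLY-Nuc and ACLY WT on the log2 scale for 22 ER folding genes and 15 ER degradation genes, in 1 mM (red circles) and 10 mM glucose (grey squares), with limma's standard error as bars and genes ordered by the value in 1 mM. The red points lie between -0.12 and 1.31, mostly well above 0, while the grey points scatter around 0.

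The list of the integrated stress response and amino acid supply had 12 of 24 genes higher and 3 lower (median 0.23). This response lets cells replace amino acids and is driven by the factor ATF4. The ATF4 composite element, TGATG and AAT with 1 free base between them, was searched in the same promoters. It was found in 2 of 21 genes of this list (9.52%) and in 0.517% of all genes. Of the serine and one-carbon genes below, 1 of 11 held it (9.09%). Beside Slc7a11, the glycine carrier Slc6a9 rose by 1.01 ± 0.07, the neutral amino acid carrier Slc1a5 by 0.65 ± 0.05 and the stress protein Nupr1 by 1.11 ± 0.11. Atf4 itself differed by 0.04 ± 0.10 (adjusted p = 0.768), but by 0.17 without ACLY WT replicate 2, which was then called (adjusted p = 0.0334), and its target Trib3 by -0.21 ± 0.10 (adjusted p = 0.115). Of the serine and one-carbon genes 8 of 13 were higher and 0 lower (median 0.29). Psph, the last step of serine synthesis, rose by 0.94 ± 0.12, the mitochondrial folate enzyme Mthfd2 by 0.71 ± 0.08, the cysteine-forming enzyme Cth by 0.68 ± 0.08 and the proline enzyme Aldh18a1 by 0.34 ± 0.04. Aminoacyl-tRNA synthetase genes were split, with 6 of 21 higher and 6 lower, and 11 higher and 6 lower without ACLY WT replicate 2. In 10 mM glucose 8 of 23 genes of the stress list were higher and 3 lower. Of the one-carbon genes 4 of 13 were higher there and 2 lower. For the stress list the change between media was called upward for 5 genes of 23 and downward for 1 (3 upward when any of 5 libraries was left out). For the one-carbon genes it was called upward for 4 of 13 and downward for 0.

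Antioxidant genes under the factor NRF2 went both ways, 7 of 19 higher and 4 lower. The glutathione transferase Gstp1 rose by 1.26 ± 0.14 and the haem oxygenase Hmox1 by 0.87 ± 0.10, while Gstm1 fell by 0.93 ± 0.08, and both transferases belong to families with close copies. Hexosamine genes had 3 of 8 higher and 0 lower, or 5 higher without ACLY WT replicate 2. Gfpt1, the first and rate-limiting step, stood at 8.64, 8.53, 8.49 and 8.51 in ACLY-Nuc and 7.62, 7.08, 7.59 and 7.49 in ACLY WT. The groups were apart by 1.10 ± 0.10, and the next enzymes Gnpnat1 and Uap1 rose by 0.53 ± 0.13 and 0.33 ± 0.09.

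Cholesterol synthesis genes were in the main higher. Acetyl-CoA is built up to mevalonate and on to squalene, closed to lanosterol by Lss and trimmed to cholesterol. Cyp51, which takes a methyl group off lanosterol, stood at 7.75, 7.97, 7.86 and 7.88 in ACLY-Nuc and 6.87, 6.84, 6.86 and 6.93 in ACLY WT. That is 1.99-fold, with the groups far apart relative to their spread. Lss rose by 1.21 ± 0.15, Tm7sf2 by 1.14 ± 0.12 and Sc5d by 0.83 ± 0.09, all acting after squalene, and Fdps, which makes farnesyl diphosphate, rose by 0.89 ± 0.12. The early enzyme Hmgcs1, a usual target of the sterol-controlled transcription factor SREBP2, differed by 0.06 ± 0.07 (adjusted p = 0.559). Fdft1, squalene synthase, fell by 0.27 ± 0.09, a call that was lost when any of 5 libraries was left out (-0.22 and adjusted p = 0.0546 without ACLY WT replicate 2). In all, 13 of 22 sterol genes were higher and 2 lower, 1 of the 2 being Fdft1, with a median of 0.34. The sequence TCACCCCAC, a sterol regulatory element searched on both strands, was found in the promoter of 1 of 17 of these genes (5.88%, Hmgcs1) and in 0.636% of all genes. In 10 mM glucose 9 of 22 were also higher and 3 lower (median 0.18), against 15% and 13.8% over all genes. Change between media was called upward for 7 of 22 and downward for 1, with Lss at 1.09 ± 0.24 (adjusted p = 0.00314) and Fdps at 0.90 ± 0.17. Fdft1, lower in 1 mM glucose, also changed upward, by 0.59.

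**Figure D4:**
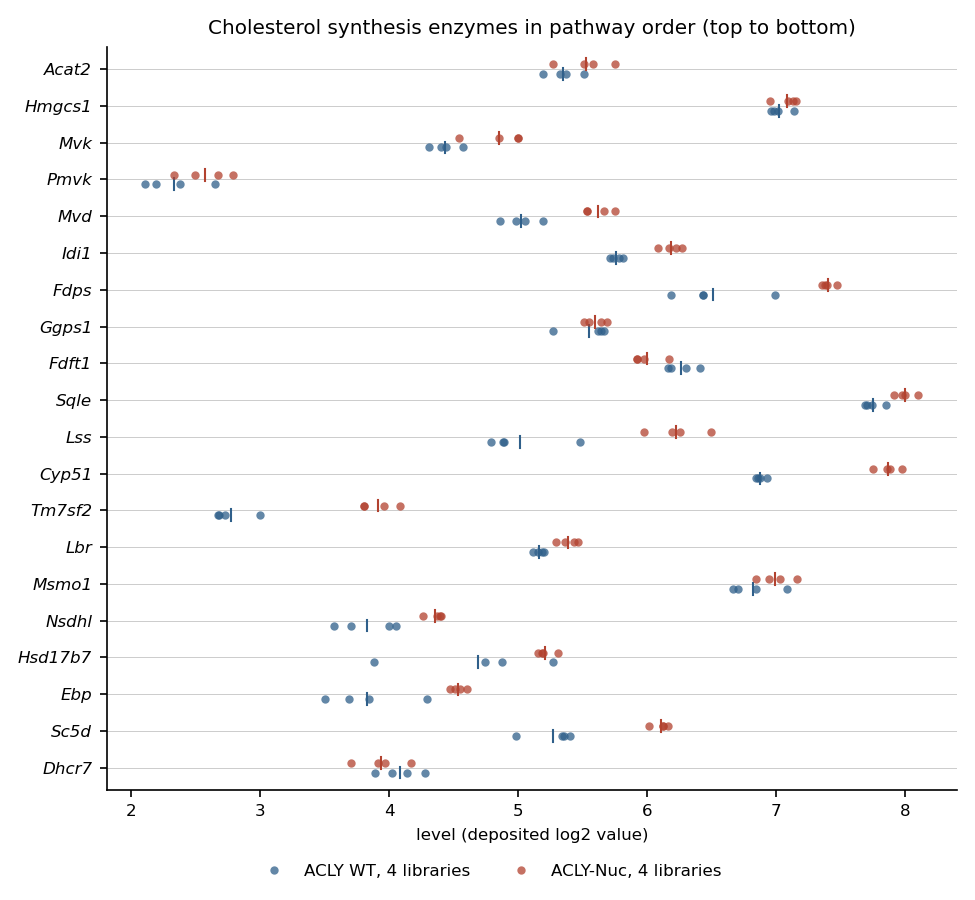
Deposited log2 level of 20 cholesterol synthesis genes, in pathway order from top to bottom, with 1 point per library (ACLY-Nuc red, ACLY WT blue) and a tick at each mean. Hmgcs1 overlaps between groups, and Lss, Cyp51, Tm7sf2 and Sc5d are higher in ACLY-Nuc.

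Of the genes that sense and take up sterols 2 of 12 were higher and 3 lower, or 1 lower without ACLY-Nuc replicate 3 or 4 and with the compared groups alone. Npc1, which moves cholesterol out of lysosomes, and Stard4, a sterol carrier, rose by 0.81 ± 0.06 and 0.66 ± 0.10. Srebf2, which encodes SREBP2, differed by -0.05 ± 0.09 (adjusted p = 0.677, or -0.16 and 0.0492 without ACLY WT replicate 2). Of 9 genes of the oxysterol receptor LXR and of sterol efflux 3 were higher and 1 lower (2 lower without ACLY WT replicate 2 and 0 when any of 4 other libraries was left out). The higher ones include Ch25h, which makes 25-hydroxycholesterol, at 1.17 ± 0.17.

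Fatty acid synthesis had 10 of 19 genes higher and 0 lower (median 0.21), and 1 lower without ACLY WT replicate 2. The desaturase family gene Fads3 rose by 0.71 ± 0.06, the elongase Elovl7 by 0.85 ± 0.13 and the acyl-CoA synthetase Acsl4 by 0.49 ± 0.08. Fasn, the fatty acid synthase, stood at 8.48, 8.58, 8.45 and 8.21 against 8.50, 8.53, 8.43 and 8.40. The groups overlapped, with a difference of -0.03 ± 0.09 (adjusted p = 0.801). Acaca, which makes malonyl-CoA, rose by 0.71 ± 0.19, or by 0.41 without ACLY WT replicate 2, which was its lowest library. Of the 11 measured genes around acetyl-CoA supply 5 were higher and 2 lower, the 2 including Acly, and 4 were lower without ACLY WT replicate 3. Acss2, which makes acetyl-CoA from acetate, stood at 3.15, 3.51, 3.14 and 3.27 in ACLY-Nuc and 2.58, 2.44, 2.46 and 2.87 in ACLY WT. The groups did not overlap, the difference was 0.68 ± 0.14, and Acly KO had a mean of 5.62, above both. The malic enzyme Me1 rose by 0.36 ± 0.06 and the mitochondrial thiolase Acat1 fell by 0.46 ± 0.09, while the citrate carrier Slc25a1 differed by -0.18 ± 0.07 (adjusted p = 0.0609), or by a called -0.23 without ACLY WT replicate 3.

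In fatty acid oxidation, glycolysis, the pentose phosphate pathway and the TCA cycle more genes were called lower than higher. In fatty acid oxidation 11 of 18 genes fell and 2 rose (median -0.23), although 7 fell when ACLY-Nuc replicate 1, 2 or 3 was left out, with the trifunctional protein subunit Hadhb at -0.39 ± 0.07 and the medium-chain dehydrogenase Acadm at -0.43 ± 0.08. The carnitine carrier Slc25a20 rose by 0.47 ± 0.09. In glycolysis 12 of 22 fell and 3 rose (median -0.22). Pfkm, a phosphofructokinase, stood at 5.63, 5.49, 5.57 and 5.62 in ACLY-Nuc and 6.32, 6.41, 6.46 and 6.26 in ACLY WT. The groups were clearly separate, at -0.78 ± 0.06. The isomerase Gpi1 and the aldolase Aldoa fell by 0.57 ± 0.07 and 0.51 ± 0.07, and the hexokinase Hk2 rose by 0.86 ± 0.08. Txnip, which curbs glucose uptake and is known to rise with glucose, stood at 0.08, 0.20, 0.26 and 0.49 in ACLY-Nuc and 2.12, 1.55, 2.44 and 1.57 in ACLY WT. It was low in both groups and lower in every ACLY-Nuc library, at -1.66 ± 0.25. The glucose transporter Slc2a1 differed by -0.04 ± 0.06 (adjusted p = 0.643). The pentose phosphate pathway had 4 of 7 lower and 1 higher, with the transketolase Tkt at -0.55 ± 0.08. For the TCA cycle and pyruvate entry 11 of 29 were lower and 1 higher, or 11 and 3 without ACLY WT replicate 2, with citrate synthase Cs at -0.37 ± 0.04 and the pyruvate dehydrogenase phosphatase Pdp1 at -0.64 ± 0.06, while Dlat, a subunit of pyruvate dehydrogenase, rose by 0.49 ± 0.07. In 10 mM glucose 8 of 22 glycolysis genes were lower and 4 higher. The change between media was called downward for 8 of 22 glycolysis genes and upward for 1, with Gpi1 at -0.58 ± 0.12. It was called downward for 4 without ACLY-Nuc replicate 1 of 1 mM glucose and 5 without ACLY-Nuc replicate 4 of 10 mM glucose.

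Hypoxia response genes, which the factor HIF1 raises when oxygen is short, had 10 of 19 lower and 1 higher (median -0.23), and 0 higher when any of 3 libraries was left out. Egln3, a prolyl hydroxylase that marks HIF for degradation, fell by 0.81 ± 0.11, the mitophagy gene Bnip3 by 0.75 ± 0.08 and Ddit4, an inhibitor of mTORC1, by 0.54 ± 0.06. The heat shock protein list, drawn up with mitochondrial as well as cytosolic members, had 7 of 17 lower and 2 higher. The higher count was 1 when any of 6 libraries was left out and 4 with sample weights. Hsp90ab1 was at -0.77 ± 0.05 and Hspa8 at -0.44 ± 0.06. Lysosome genes had 10 of 29 lower and 3 higher, or 11 and 6 without ACLY WT replicate 2, with progranulin, Grn, at -0.81 ± 0.07. Among 12 iron and metallothionein genes 5 were lower and 3 higher, including the metallothionein Mt2 at -1.19 ± 0.14 and the iron exporter Slc40a1 at -0.68 ± 0.09.

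The called replication genes were mostly lower and the called mitotic genes mostly higher. Before S phase the MCM helicase is loaded onto origins, and after it the mitotic kinases and spindle proteins rise. Mcm4, a helicase subunit, stood at 5.78, 5.92, 5.93 and 5.84 in ACLY-Nuc and 7.00, 6.77, 6.94 and 6.99 in ACLY WT. Every ACLY-Nuc library was lower, by -1.06 ± 0.06 (adjusted p = 1.22e-09). The other subunits Mcm3, Mcm6 and Mcm5 followed at -0.93 ± 0.11, -0.78 ± 0.07 and -0.71 ± 0.07, and the sliding clamp Pcna at -0.52 ± 0.07. Of 35 replication genes 16 were lower, 2 higher and 17 not called (median -0.29). The 2 higher were Cdc6, which loads the helicase, at 0.58 ± 0.11, and the reductase subunit Rrm2 at 0.45 ± 0.10. Of 32 genes of G2 and mitosis 13 were higher, 1 lower and 18 not called (median 0.26), and 21 were higher and 0 lower without ACLY-Nuc replicate 1. The phosphatase Cdc25c, which releases cells into mitosis, rose by 0.79 ± 0.11, the mitotic transcription factor Foxm1 by 0.76 ± 0.14, the cytokinesis protein Anln by 0.68 ± 0.11 and the spindle protein Tpx2 by 0.43 ± 0.08. The D cyclins Ccnd1 and Ccnd2 rose by 0.67 ± 0.06 and 0.76 ± 0.10, and the CDK inhibitor Cdkn1a fell by 0.55 ± 0.05. In 10 mM glucose the replication genes had the same counts, 16 of 35 lower and 2 higher, and the mitotic genes 4 of 32 higher and 1 lower. The change between media was called upward for 5 mitotic genes and downward for 0, with 2 to 11 upward when single libraries were left out.

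**Figure D5:**
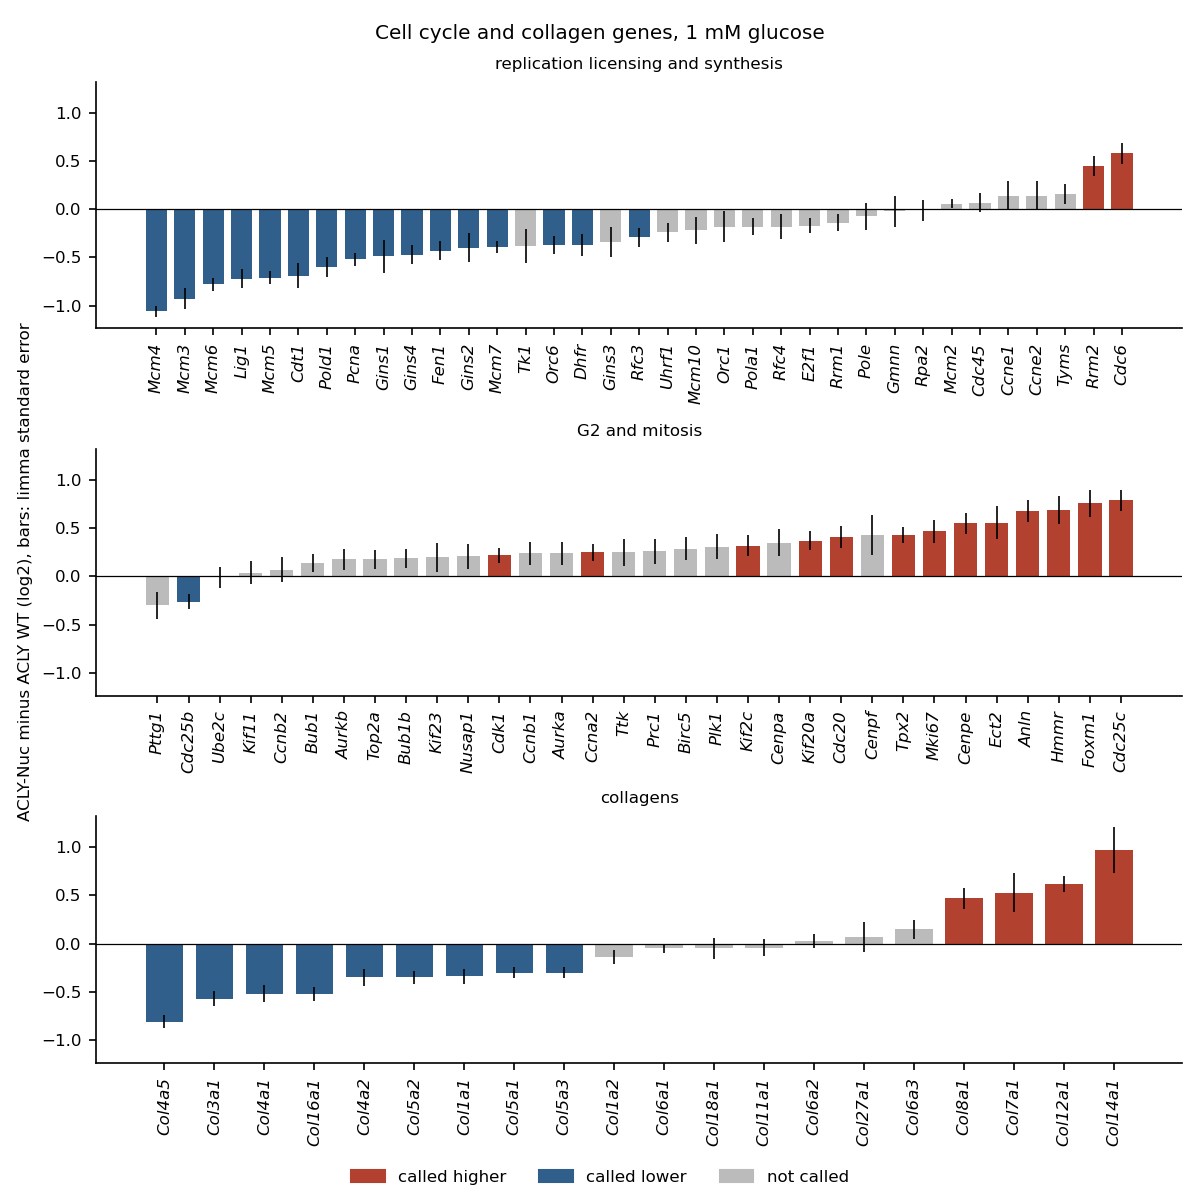
Difference between ACLY-Nuc and ACLY WT on the log2 scale in 1 mM glucose for replication genes (top), genes of G2 and mitosis (middle) and collagens (bottom), with bars from 0, limma's standard error as lines, and red for called higher, blue for called lower and grey for not called. Mcm4 is the lowest replication gene at -1.06, Cdc25c the highest mitotic gene at 0.79, and 9 of 20 collagens are called lower.

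The matrix differed in its parts. Fibrillar and basement membrane collagens form the bulk of what fibroblasts secrete, small leucine-rich proteoglycans bind along the fibrils, and metalloproteases cut them. Of 20 collagen genes 9 were lower and 4 higher (median -0.10, or -0.04 after quantile normalization and -0.19 with the length trend removed). Col1a1 fell by 0.34 ± 0.08, Col3a1 by 0.57 ± 0.08, Col16a1 by 0.52 ± 0.07 and the basement membrane chain Col4a5 by 0.81 ± 0.07, whereas the fibril-associated Col12a1 rose by 0.62 ± 0.08. The change between media was called downward for 11 of 20 collagens and upward for 0, since in 10 mM glucose 9 were higher and 2 lower. For Col1a1 the difference was 0.30 in 10 mM glucose and the change -0.64 ± 0.10 (adjusted p = 6.8e-05). Quantile normalization left 5 of the 11 downward changes, and under it Col1a1, one of the most abundant transcripts, was called neither for its difference (-0.08, adjusted p = 0.497) nor for its change (-0.14, 0.514). Among the processing enzymes 8 of 23 were lower and 4 higher, with the lysyl hydroxylases Plod1 and Plod2 at -0.63 ± 0.05 and -0.55 ± 0.08, the procollagen protease Bmp1 at -0.70 ± 0.06 and the prolyl hydroxylase subunit P4ha3 at 1.10 ± 0.13.

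In the list of small proteoglycans and hyaluronan genes 7 of 16 were higher and 6 lower. Fmod, fibromodulin, stood at 6.11, 6.49, 6.49 and 6.38 in ACLY-Nuc and 3.43, 3.43, 3.60 and 3.52 in ACLY WT. The gap between groups was many times the spread within them, and the rise was 7.33-fold. Decorin, Dcn, rose by 2.17 ± 0.09 and the hyaluronan synthase Has2 by 1.60 ± 0.12. Of the elastic fibre list 6 of 20 were lower and 4 higher. Mfap5, a microfibril protein, rose by 2.75 ± 0.16, while Emilin2 fell by 3.24 ± 0.17 and Matn2 by 0.83 ± 0.05. The fibrillin gene Fbn2 stood at -1.71, -1.56, -0.83 and -2.82 in ACLY-Nuc and at 6.61, 5.72, 6.62 and 6.75 in ACLY WT. Only ACLY WT held it at a high level, as Acly KO and ACLY-Cyto had means of 0.74 and -0.40.

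Metalloproteases and inhibitors had 10 of 26 higher and 9 lower, or 8 and 11 without ACLY WT replicate 2. Mmp2, the main gelatinase of fibroblasts, stood at 10.91, 11.01, 10.95 and 10.96 against 11.73, 11.77, 11.75 and 11.65. The ACLY-Nuc libraries were all lower, by -0.77 ± 0.06, while in 10 mM glucose the difference was 0.17, and the change of -0.94 ± 0.08 was called (adjusted p = 3.34e-09). Mmp9 and the membrane-bound Mmp15 were lower at -1.25 ± 0.08 and -1.45 ± 0.19.

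Contractile genes had 4 of 22 higher and 6 lower. Tagln, which binds actin in contractile cells, stood at 7.00, 7.30, 7.20 and 7.35 in ACLY-Nuc and 3.78, 4.06, 3.38 and 3.64 in ACLY WT, an 11.3-fold rise. No other gene named from this list moved as far: the myosin Myh10 and vinculin, Vcl, fell by 0.68 ± 0.08 and 0.71 ± 0.12, and smooth muscle actin, Acta2, rose by 0.32 ± 0.10 with overlapping groups, or by 0.26 without ACLY WT replicate 3, which was not called. In the TGF-beta list 5 of 30 were higher and 7 lower, or 5 and 12 without ACLY WT replicate 2 and 8 higher without ACLY WT replicate 3. The latent TGF-beta binding proteins Ltbp1 and Ltbp2 went in opposite directions, at -1.02 ± 0.06 and 1.80 ± 0.13, and the BMP antagonist Grem1 fell by 0.72 ± 0.08. The ligand gene Tgfb1 differed by -0.17 ± 0.09 (adjusted p = 0.139).

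Some surface receptors and ligands had wide gaps, while the integrin and Wnt lists had calls near the shares over all genes, 19.7% higher and 19.4% lower. The integrin subunit Itgb8 fell by 3.09 ± 0.17, among 25 integrin and basement membrane genes with 5 higher and 5 lower, or 3 and 7 without ACLY WT replicate 2 and 3 higher without ACLY-Nuc replicate 1 or 3. In the Wnt pathway, 6 of 25 were higher and 5 lower. Ror2, a receptor for WNT5A, stood at 1.04, 1.71, 1.94 and 1.84 in ACLY-Nuc and 5.03, 4.74, 4.97 and 4.97 in ACLY WT. The groups were separate at -3.30 ± 0.15, while the ligand Wnt11 rose by 2.74 ± 0.31 and the receptor Fzd5 by 1.02 ± 0.13. Of 39 guidance genes 13 were higher and 4 lower with a median of 0.12, and 12 and 7 with a median of -0.08 without ACLY WT replicate 2 (0.20 without ACLY WT replicate 4), while leaving out each of the other libraries gave 1 to 3 lower. Sema6a and Sema3c rose by 2.98 ± 0.25 and 1.15 ± 0.07, opposite to Sema3f above. The list of immediate early and ERK feedback genes was even, with 7 of 36 higher and 7 lower (11 lower without ACLY WT replicate 1). The ETS factor Etv5 and the ERK inhibitor Spry4 rose by 1.24 ± 0.06 and 1.55 ± 0.18.

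Most interferon-stimulated genes were called higher in ACLY-Nuc. Interferons act through factors that include STAT2 and IRF9, which bind the interferon-stimulated response element of their target genes. Its core, GAAA repeated after 2 free bases, was searched on both strands in the same RefSeq promoters and was found in 9 of 18 of these genes (50%) and in 3.7% of all genes. The stretches of 3 genes described here are shown, with matches in capitals, each written along the gene's own strand, on which the motif of Stat2 and Ifit1 reads as its reverse complement.
Stat2, chr10:128270261-128270300, plus strand, 198 to 237 bases before the start: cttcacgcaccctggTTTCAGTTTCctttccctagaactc
Isg15, chr4:156200860-156200911, minus strand, 42 to 93 bases before the start: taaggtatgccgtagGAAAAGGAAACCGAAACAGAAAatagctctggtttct
Ifit1, chr19:34640770-34640828, plus strand, 61 to 119 bases before the start: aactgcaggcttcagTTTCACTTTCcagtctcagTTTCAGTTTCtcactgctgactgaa
The matches of Isg15 overlap one another.

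Stat2 stood at 5.99, 5.74, 5.77 and 5.82 in ACLY-Nuc and 5.28, 4.87, 5.30 and 5.05 in ACLY WT. All ACLY-Nuc libraries were higher, by 0.70 ± 0.09. Xaf1, a pro-apoptotic target, rose by 1.23 ± 0.10, Ifi44 by 1.21 ± 0.12 and Dhx58, which modulates RNA sensing, by 1.20 ± 0.16. Isg15, a ubiquitin-like modifier, stood at 3.06, 2.97, 2.76 and 2.51 against 1.34, 2.57, 1.67 and 1.12. ACLY WT replicate 2 overlapped ACLY-Nuc, and the difference of 1.15 ± 0.23 became 1.45 without it. Ifit1, which binds foreign RNA, rose by 0.73 ± 0.17, although reads of the Ifit genes may be divided among close copies. In all, 16 of 25 genes were higher and 2 lower (median 0.48), and 17 and 2 without ACLY WT replicate 2. The 2 lower were Irf1 at -0.52 ± 0.08 and Ifit2 at -0.39 ± 0.08. In 10 mM glucose 1 of 22 was higher and 3 lower. The change between media was called upward for 6 of 22 and downward for 0, with Ifit1 at 1.87 ± 0.30, Dhx58 at 1.39 ± 0.31 and Stat2 at 0.76 ± 0.12. The macrophage marker sums given above also differed between the groups, with 2 markers called in each direction, and their part in this result was not tested.

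Other immune genes were mixed. Complement genes had 6 of 12 higher and 4 lower, and C4b, at 4.21, 4.21, 4.18 and 4.15 in ACLY-Nuc and 1.60, 1.75, 1.86 and 1.36 in ACLY WT, rose by 2.54 ± 0.17 while C3 fell. Secreted inflammatory factors had 5 of 15 higher and 2 lower, with the chemokine Cxcl12 at 0.57 ± 0.09 and the cytokine Tslp at 1.74 ± 0.21. The membrane chemokine Cx3cl1 fell by 0.88 ± 0.09. Genes of antigen presentation had 3 of 14 higher and 4 lower.

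Of 33 genes of histone acetyltransferases, deacetylases and acetyl-lysine readers, 4 were higher, 4 lower and 25 not called, below the share over all genes in each direction. The acetyltransferase Kat2b rose by 0.50 ± 0.09 and the deacetylase Hdac9, of low level, by 1.06 ± 0.27, or 0.63 with 1 added on the linear scale. The deacetylase Hdac5 fell by 0.59 ± 0.09, with a change between media of -0.69 ± 0.12 for Hdac5. Ep300 and Crebbp, the main acetyltransferases at enhancers, differed by 0.45 ± 0.22 (adjusted p = 0.11) and 0.00 ± 0.15 (0.995), and without ACLY WT replicate 2, the lowest library for both, by 0.14 and -0.21, again not called. Ep300 was called at 0.61 without ACLY WT replicate 1, and Crebbp at -0.22 (adjusted p = 0.0197) with the length trend removed. Of 14 genes of DNA methylation and imprinting 5 were lower and 1 higher (6 and 2 without that library), led by the imprinted gene Sgce at -2.25 ± 0.16. Limb and Hox genes, which keep the positional identity of fibroblasts, had 16 of 47 lower and 10 higher, with Pax9 at -1.40 ± 0.10, Meis2 at -0.63 ± 0.06 and Tbx2 at 1.56 ± 0.16.

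Some genes were near the lowest value of the table in one group and expressed in the other. These were picked after their values were seen, by asking for all 4 libraries below -1 in one group and above 2 in the other, which gave 9 genes low in ACLY-Nuc and 6 low in ACLY WT. Kctd12, a subunit of GABA-B receptors, stood at -3.59 in all 4 ACLY-Nuc libraries and at 3.73, 2.79, 3.38 and 3.24 in ACLY WT. Gata6, a transcription factor of mesoderm and endoderm, stood at -2.54, -3.11, -3.04 and -1.90 against 3.34, 3.12, 3.55 and 3.26. Both were at intermediate levels in the other lines, with Gata6 means of 1.86 in Acly KO and 2.04 in ACLY-Cyto. In the other direction, Rgl3, an effector of RAS, stood at 3.27, 3.23, 2.95 and 3.25 in ACLY-Nuc and at -3.59 in all 4 ACLY WT libraries, although Acly KO and ACLY-Cyto had means of 3.62 and 2.89. Slc16a7, a pyruvate and lactate carrier, stood at 3.03 to 3.89 against -3.16 to -2.13, with means of 0.51 and 0.42 in the other lines. Because the depth of the libraries is unknown, a lowest value does not mean that no transcript was made.

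Among genes at or above the median level in both media, those whose difference depended most on the medium were led downward by the iron exporter gene Slc40a1, with a difference of -0.68 in 1 mM and 0.78 in 10 mM glucose and a change of -1.46 ± 0.20 (adjusted p = 1.25e-05). Gja1, the gap junction protein connexin 43, went from 0.43 in 10 mM to -0.60 in 1 mM, a change of -1.03 ± 0.09 (6.08e-09). The neuronal regeneration protein gene Nrep went from 0.51 to -0.56, the membrane protein gene Tmem119 changed by -1.09 ± 0.15 and the small GTPase Arl4c by -1.12 ± 0.09, and for Mtrnr2l7 the change was -1.07 ± 0.15. Upward, Ptx3, a secreted pattern recognition protein, differed by -1.07 in 10 mM and by 0.22 ± 0.09 (adjusted p = 0.0563) in 1 mM, or by a called 0.34 without ACLY WT replicate 2, a change of 1.29 ± 0.13 (5.97e-08). Calcrl, the receptor subunit for adrenomedullin, changed by 1.12 ± 0.20 and Slc39a10 by 1.12 ± 0.24. Creld2, Hyou1 and Lss, described above, complete the 6 largest upward changes at this level of expression.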

How the data were processed

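RNA was sequenced from 32 samples, and the tables for 1 mM and 10 mM glucose hold log2 values that the authors deposited. Per the submitters' processing notes, kallisto, edgeR, limma and the genome GRCm39 were used, with no versions. The sources used here do not give how the log2 values were made, whole reads could not be recovered from them, and the depth of each library is unknown. From the deposited log2 values, limma 3.58.1 in R 4.3.3 fitted group means to all 16 libraries in 1 mM glucose with an intensity trend, and p-values were adjusted by Benjamini-Hochberg over 12053 genes at 0.05. One row without a symbol was left out of each table. The change between media was fitted on 11931 genes in 31 libraries, leaving out the third ACLY-Cyto library in 10 mM glucose, which the submitters call an anomaly. Medium equals batch and the tables were normalized separately, so only this difference of differences was read. Counts of list members and medians are descriptions beside those of all genes.

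Genes named were Acly, the 10 largest called rises and falls among genes at or above the median level whose groups did not overlap, the called members of each list with the lowest adjusted p, at most 4, and the 6 largest called changes between media in each direction among genes at or above the median level in both. Pseudogene-like symbols of the Gm and Rik kind were passed over, and other list members are shown for their role. Some genes are counted in the lists but not reported here by name. The members and lists were chosen with earlier results of these data known. Promoters came from RefSeq on GRCm38.p6, with 9279 genes matched by symbol. Replicate numbers were not used as a block. The fits were tested on simulated data, and 10 kinds of alternative were run, among them other scalings, sample weights, fewer genes and leaving out each library.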

Additional observations from a re-analysis of the deposited data

Results flagged for a closer look

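Of 372 groups of 4 libraries examined, 27 (7.26%) held 1 library far from the other 3, where chance gives about 1 group in 20. ACLY WT replicate 2 was that library in 12, first in its median absolute deviation of 0.316 from its replicates, against 0.129 to 0.154 for the others. It was high for Ddit3 at 9.70, Mtrnr2l7 at 7.37, Mthfd2 at 8.18, Grn at 9.20 and Egln3 at 4.30. It was low for Crebbp at 5.82, Fbn2 at 5.72, Calcrl at 5.32, Col12a1 at 7.70, Sema3f at 6.59 and Sc5d at 4.98. The largest of these gaps was that of Ddit3, where the other 3 libraries stood at 8.65 to 8.68.

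ACLY-Nuc replicate 1 was high for the ER genes Hyou1 at 10.48, Creld2 at 9.44 and Sel1l at 9.70, and also for Npc1 at 7.46, Emilin2 at 1.16 and Hdac9 at 1.45, and it was low for Rrm2 at 5.35. Each of these ER genes was still called higher without it. ACLY-Nuc replicate 3 was low for Rgl3 at 2.95 and Slc16a7 at 3.03, and replicate 4 was high for Hmox1 at 9.11. ACLY WT replicate 4 was low for Hyou1 at 8.67 and Edem1 at 7.91 and high for Lss at 5.48. Ch25h in ACLY WT replicate 1 stood at 1.39 and Acadm in replicate 3 at 5.98.

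The difference between ACLY-Nuc and ACLY WT itself differed between 1 mM and 10 mM glucose for 1225 genes, of which 85 are named here. The values that follow are changes of the log2 difference, 1 mM minus 10 mM. In the ER groups they were 1.58 for Sdf2l1, 1.40 for Creld2, 1.22 for Dnajb9, 1.15 for Hyou1, 1.02 for Syvn1, 0.98 for Dnajc3 and for Hsp90b1, and 0.97 for Pdia4. They were 0.95 for Sel1l, 0.94 for Hspa5, 0.84 for Ddit3, 0.81 for Calr, 0.79 for Pdia6, and 0.62 for Edem1 and for Herpud1. In amino acid supply they were 0.64 for Slc7a11, 0.52 for Slc6a9, 0.38 for Aldh18a1 and 0.37 for Slc1a5.

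In lipid metabolism the changes were 1.44 for Ch25h, 1.09 for Lss, 0.90 for Fdps, 0.76 for Acss2, 0.75 for Tm7sf2, 0.59 for Fdft1, 0.52 for Sc5d, 0.49 for Stard4, 0.46 for Fads3 and 0.42 for Cyp51. They were -0.50 for Acly and -0.49 for Plin4. In sugar metabolism and hypoxia they were 0.63 for Gfpt1, -1.19 for Txnip, -0.58 for Gpi1, -0.51 for Bnip3, -0.44 for Pfkm, -0.40 for Hk2 and -0.38 for Ddit4. In the cell cycle they were 0.67 for Cdc25c, 0.64 for Cdc6, 0.43 for Tpx2, -0.39 for Mcm4, -0.50 for Mcm6 and -0.48 for Cdkn1a.

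In the matrix and at the cell surface most changes were downward, with -4.52 for Fbn2, -1.38 for Emilin2, -1.20 for Mmp15, -1.03 for Ror2 and for Gja1, -0.94 for Mmp2, -0.88 for Ctsk and -0.80 for Igfbp4. They were -0.66 for Myh10, -0.64 for Col1a1, -0.62 for Col4a5, -0.59 for Bmp1 and for Grem1, -0.51 for Matn2, -0.50 for Col3a1, -0.45 for Col16a1 and -0.42 for Aspn. Upward they were 1.12 for Calcrl and for Slc39a10, 0.81 for Svep1, 0.69 for Fzd5 and 0.62 for Mmp9. Among immune genes they were 1.93 for C3, 1.87 for Ifit1, 1.71 for Tslp, 1.39 for Dhx58, 1.29 for Ptx3, 0.76 for Stat2 and -0.35 for Cxcl12. Others were 0.81 for Pax9, 0.69 for Nnmt, 0.64 for Ces2g and 0.62 for Atp2a3. Downward they were -1.46 for Slc40a1, -1.12 for Arl4c, -1.09 for Tmem119, -1.07 for Nrep and for Mtrnr2l7, -0.92 for Rab3il1, -0.69 for Hdac5 and -0.38 for Grn. The calls for Slc7a11, Atp2a3, Svep1 and Cxcl12 were lost when single libraries were left out.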

How the results depend on the processing

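Of 4718 genes called in 1 mM glucose, the alternatives called 3606 to 5674: 3606 with the compared groups alone, 5674 with sample weights, and 4046 to 5138 when 1 library was left out. Of the original calls, 75.3% remained with the compared groups alone and 91.9% to 99.4% under each other change of the fit. For the change between media, 1225 calls became 2245 with sample weights (1089 upward, 1156 downward), 872 with the compared groups alone and 960 to 1370 without 1 library. The mitochondrially encoded share kept its direction, with a difference of 0.265 percentage points (exact permutation p = 0.0571) over a nominal total and 0.249 to 0.377 without 1 library (p = 0.0571, the smallest that 3 against 4 allows). The replicate numbers did not pair the libraries, since same-numbered ACLY-Nuc and ACLY WT libraries correlated at 0.086, -0.01, -0.005 and -0.047 and only number 1 correlated best with its own number. A replicate block gave 4513 and 1316 calls.

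Acly was called under every alternative. Genes near 0 changed sign, none of them called on the other side. Without 1 library Atf4 ranged from -0.02 to 0.17, Crebbp from -0.21 to 0.07, Fasn from -0.08 to 0.04, Srebf2 from -0.16 to 0.01 and Slc2a1 from -0.07 to 0.01, and sample weights put Slc2a1 at 0.01. With the compared groups alone the call for Acaca was lost (adjusted p = 0.0549), and so were the changes between media of Nnmt (0.0678), Sc5d (0.0502), Slc7a11 (0.0644), Svep1 (0.0928) and Cxcl12 (0.0574). The change of Slc7a11 was also lost with sample weights (0.0553) and a replicate block (0.0527), and that of Atp2a3 with the block (0.0505). Quantile normalization ended the changes of Col3a1 (-0.13, adjusted p = 0.487) and Cxcl12 (0.0697), and put the called differences of Col3a1 at -0.28, Mmp2 at -0.45, Igfbp4 at -0.29, Hspa8 at -0.27, Calr at 0.85, Acta2 at 0.52 and mt-Atp6 at 0.61. Length-trend removal put Col12a1 at 0.39. Calls were gained for Atf4 (0.0198) and Tmem119 (0.049) with sample weights and for Slc25a1 (0.0441) with equal library medians. Of the list counts in 1 mM glucose, the compared groups alone took fatty acid oxidation to 6 lower, the TCA cycle to 7 lower, NRF2 targets to 1 lower and acetyl-CoA supply to 3 higher, and quantile normalization took mitochondrially encoded genes to 10 higher. Sample weights took upward changes between media to 11 for sterol genes, 10 for interferon-stimulated genes, 9 for mitotic genes, 9 for the stress list and 7 for one-carbon genes, while the compared groups alone took the last 2 to 3 and 2, and downward glycolysis changes to 4. The causes were not tested. With depth unknown, no limit can be given for genes at the lowest value.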

Other observations

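Further groups of genes complete the description. Mitochondrially encoded genes had 5 of 13 higher and 0 lower (median 0.34), with mt-Cytb, a subunit of complex III, at 0.47 ± 0.09 and mt-Atp6, a subunit of the ATP synthase, at 0.40 ± 0.09, and without ACLY-Nuc replicate 1 the count was 3. The median was 0.19 without ACLY WT replicate 2. Of 17 genes of lipid droplets and triglyceride synthesis 5 were higher and 3 lower, or 3 higher without ACLY-Nuc replicate 1. The acyltransferases Gpat3 and Dgat2 rose by 1.18 ± 0.18 and 0.53 ± 0.10, and the droplet coat gene Plin4 fell by 0.55 ± 0.10. Targets of the mechanosensitive factors YAP and TEAD had 3 of 19 higher and 5 lower, or 8 lower without ACLY WT replicate 2 and 5 higher without ACLY WT replicate 1. Ankrd1, a classical target, was low in both groups, at -2.09 to -1.66 in ACLY-Nuc and -0.17 to 0.51 in ACLY WT. Genes of IGF signalling had 2 of 16 higher and 5 lower, with the binding proteins Igfbp6 and Igfbp4 at -1.46 ± 0.12 and -0.46 ± 0.07, and 3 were lower without ACLY WT replicate 1. Only 1 was higher without ACLY-Nuc replicate 1, 2 or 3 or ACLY WT replicate 2.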
